A study of Sus scrofa with 14 samples.

Results

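The genes described here encode enzymes that cut the extracellular matrix and the inhibitors that hold them back: the matrix metalloproteinases MMP1, MMP2, MMP3, MMP7, MMP9 and MMP14, the aggrecan-cutting protease ADAMTS1, and the tissue inhibitors TIMP1 and TIMP2. A probe belonged to one of these 9 listed genes when the RefSeq transcript accession it carried was a transcript of that pig gene. Of the 9 genes, 8 had a probe, and together they had 13 probes, out of 2389 genes that could be named in the same way. MMP7 had no matching probe and was not analysed here. The measurements came from the meniscus, the fibrocartilage pad between femur and tibia, of 14 male Wuzhishan pigs aged 6 to 7 months and weighing 15 to 18 kg. In the OA group, 7 pigs had surgery on the anterior cruciate ligament and the tissue was taken 24 weeks later. In the sham group, 7 pigs had a sham operation and the tissue was taken after the same 24 weeks. Total RNA was labelled with Cy3 and read on single-colour arrays, 1 array per pig, and the labels name no other treatment in either group.

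Most of these enzymes are made as inactive precursors, are switched on by other proteases outside the cell, and are then blocked by TIMP proteins that bind the active site. Collagenases such as MMP1 make the first cut in fibrillar collagen, gelatinases (MMP2 and MMP9) digest the denatured collagen that results, and stromelysin (MMP3) cuts proteoglycans and activates other MMP precursors. MMP14 sits in the cell membrane and, together with TIMP2, activates the MMP2 precursor. In joint tissue these enzymes are known for the turnover of collagen and aggrecan. Transcript levels say nothing about activation of the precursors, which was not measured.

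Each value below is the log2 of a probe's background-corrected signal minus the log2 of the 75th percentile of all non-control probes on the same array. A value of 0 is therefore a probe as bright as that percentile, and a step of 1 is a 2-fold difference between arrays. Probes differ in how strongly they bind, so values of different probes are not relative amounts of their transcripts. Where marker values are summed below, the sum and a gene's share of it also depend on that binding. Where a gene had several probes they are lettered from the brightest down. All 13 probes were well above background on all 14 arrays, and no spot of theirs was marked as an outlier or saturated.

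OA arrays were dimmer than sham arrays. Sham and OA arrays never shared a slide or a scan day, so a difference between groups cannot be told apart from one between slides. The raw 75th percentile was 537 ± 82.0 on sham arrays and 274 ± 124 on OA arrays (SD, n = 7 each; two-sided exact permutation p = 0.0035, adjusted p = 0.0035). Well above background were 91.2% ± 1.8 of probes on sham arrays and 78.1% ± 8.9 on OA arrays (SD, n = 7 each; two-sided exact permutation p = 0.00058, adjusted p = 0.0012). Arrays sharing a scan start were taken as 1 slide: slide 1 held sham 1 to sham 4, slide 2 sham 5 to sham 7, slide 3 OA 1, slide 4 OA 2 to OA 5, and slide 5 the last pair, OA 6 and OA 7. Without slides 3 and 4, which left OA 6 and OA 7 as the only OA arrays, neither measure passed the threshold. Among markers of the tissue itself, ACAN, SOX9, HAPLN1 and DCN, the 4 tested of 12 listed meniscus and cartilage genes, were well above background on all 14 arrays. Fewer cells of a type and less RNA per cell cannot be told apart in whole tissue.

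None of the 13 probes differed between OA and sham past the threshold (limma adjusted p from 0.30 to 0.97, n = 7 per group), where 3.74% of the 38818 tested probes were called. At an unadjusted p under 0.05 the count was also 0, where 19.6% of tested probes passed. In none of the 13 did the groups separate without overlap, which 1.73% of tested probes did. The change was positive for 7 of 9 protease probes (median 0.17 on the log2 scale) and negative for all 4 TIMP probes (median -0.50), of which TIMP1 b and c are close to 1 measurement. The count for the proteases was not stable. Without slides 3 and 4, which left OA 6 and OA 7 as the only OA arrays, it was 3 of 9 (median -0.18). With array brightness as a covariate it was 4 of 9 (median -0.11). All 4 TIMP probes stayed negative in both fits. Dimness of the slides cannot be told apart here from the animals on them. Among all probes tested, 44.9% were positive and the median change was -0.05. With the slide as a random block, a fit in which arrays of a slide may share a deviation, 0 of the 13 passed and 0.0464% of all tested probes did.

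These 13 probes varied among arrays of the same group more than most. Arrays of a group also differed in slide, so this spread is not that of animals alone. The residual SD within groups had a median of 0.72 for the 13 probes and 0.45 for all tested probes, and 12 of the 13 lay above the latter. In the fit without a slide term, the 95% intervals of 9 probes took in a 2-fold difference in at least 1 direction. Those of the other 4, which were both MMP2 probes, MMP14 and TIMP1 a, did not. With the slide as a random block their SE was larger, at 0.43 for MMP2 a, 0.44 for MMP2 b, 0.36 for MMP14 and 0.28 for TIMP1 a. Intervals of that fit are not given here, so the bound is stated for the fit without a slide term alone.

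**Figure D1:**
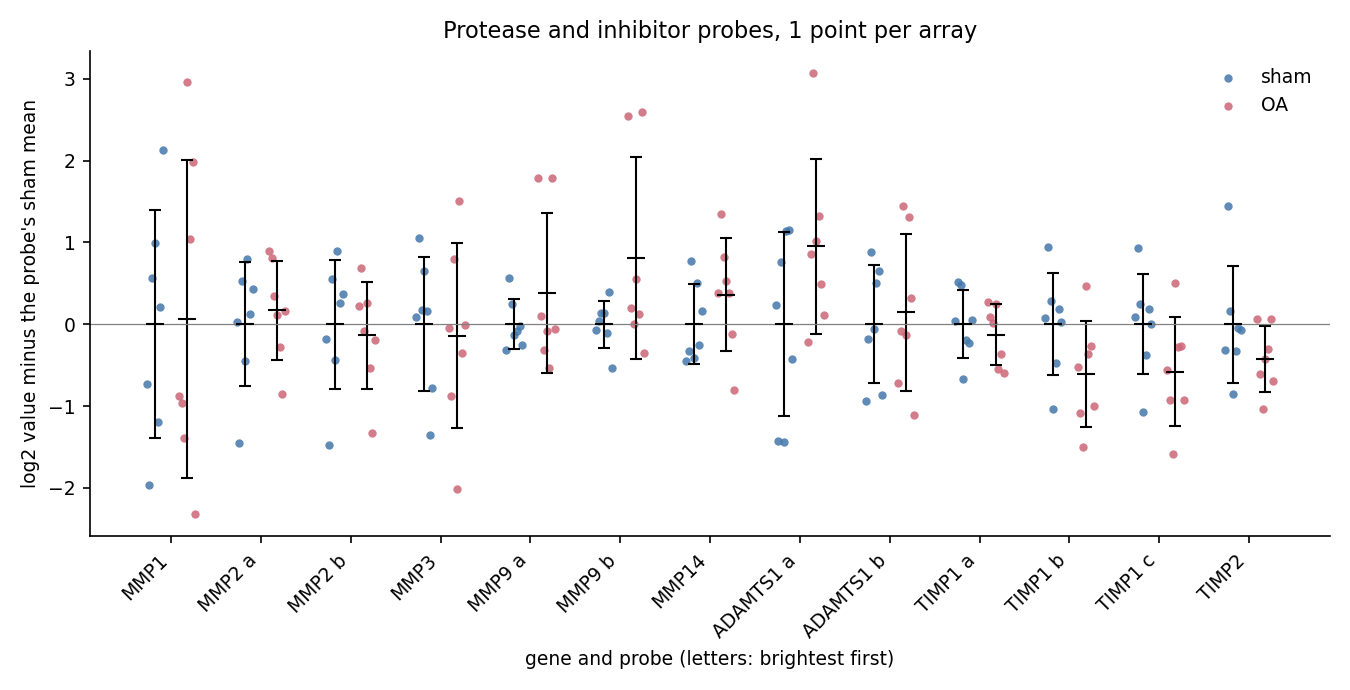
Each point is 1 array's log2 value minus the sham mean of the same probe (vertical axis), for the 13 probes (horizontal axis), with 7 sham arrays in blue and 7 OA arrays in red; black bars are the mean and SD. The groups overlap for every probe, and MMP1 has the widest spread, from -2.32 to 2.96 among OA arrays.

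MMP1, the interstitial collagenase (NM_001166229), differed more between arrays of one group than between the groups. Sham arrays ran from -2.30 (sham 2) through a median of -0.12 to 1.80 (sham 7), a 17.1-fold range. OA arrays ran from -2.65 (OA 7) through a median of -1.21 to 2.63 (OA 4), a 38.9-fold range. OA 4 and OA 6 stood high and OA 7 low, and the OA range held the whole sham range. The change was 0.06 ± 0.78 (SE; 95% interval -1.60 to 1.72; limma adjusted p = 0.97), which leaves room for a 3.29-fold increase or a decrease to 0.331 of the sham level. Its residual SD was 1.69, and 0.361% of tested probes had a larger one.

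MMP3, stromelysin 1 (NM_001166308), was also variable. Its sham values ran from 2.93 (sham 6) through 4.44 to 5.34 (sham 2). Its OA values ran from 2.27 (OA 4) through 4.24 to 5.79 (OA 5), an 11.5-fold range. The change was -0.14 ± 0.47 (SE; 95% interval -1.13 to 0.85; limma adjusted p = 0.90). MMP1 and MMP3 lie on one chromosome with 0 genes between them in the RefSeq annotation of Sscrofa11.1, but the arrays did not order alike: OA 4 was the highest of all for MMP1 and the lowest of all for MMP3. Across the 7 sham arrays their values correlated at r = -0.51 (rho = -0.32) and across the 7 OA arrays at r = -0.39 (rho = -0.46), neither past the threshold (exact permutation p = 0.24 and 0.50 in sham and 0.38 and 0.30 in OA). Leaving out the 2 arrays farthest from the MMP1 median gave r = 0.07 in sham and 0.58 in OA, so the sign rests on those arrays.

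MMP2, gelatinase A (NM_214192), was read by a pair of probes with changes of opposite sign, neither past the threshold. Probe a ran from 4.53 (sham 2) through 6.10 to 6.79 (sham 5) in sham, and from 5.14 (OA 6) through 6.15 to 6.88 (OA 1) in OA. Probe b ran from 1.57 (sham 2) through 3.31 to 3.95 (sham 5) in sham, and from 1.72 (OA 6) through 2.97 to 3.74 (OA 2) in OA. Sham 2 and OA 6 stood lowest in their groups on both probes. The changes were 0.17 ± 0.33 for probe a (SE, 95% interval -0.54 to 0.88, limma adjusted p = 0.82) and -0.14 ± 0.35 for probe b (-0.88 to 0.61, adjusted p = 0.87). Both intervals stayed inside a 2-fold difference in this fit, which had no slide term. With the slide as a random block the changes were 0.16 ± 0.43 for probe a and -0.19 ± 0.44 for probe b (SE). The probes moved together across arrays, with r = 0.99 over the 7 sham arrays (exact permutation p = 0.00020, adjusted p = 0.00060 over 6 pairs of probes, rho = 1.00) and r = 0.91 over the 7 OA arrays (exact permutation p = 0.0046, adjusted p = 0.014, rho = 0.71). By rank the relation in OA did not pass (exact permutation adjusted p = 0.18). Without the 2 arrays farthest from the median, r was 0.95 and 0.88.

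MMP9, gelatinase B (NM_001038004), is an enzyme of neutrophils, macrophages and osteoclasts, and it stood high in 2 of the 7 OA animals. On probe a the sham arrays ran from 0.17 (sham 1) through 0.40 to 1.05 (sham 2). OA 1 and OA 6 both stood at 2.27 on probe a, each 3.45-fold above the sham mean, and the other 5 OA arrays ran from -0.06 to 0.58. On probe b the sham arrays ran from -4.20 (sham 7) through -3.64 to -3.27 (sham 6). OA 1 and OA 6 stood at -1.13 and -1.08 on probe b, 5.84-fold and 6.04-fold above the sham mean, and the other 5 OA arrays ran from -4.03 to -3.12. The same 2 animals thus stood apart on both probes, while the other OA arrays lay within or near the sham range. OA 1 and OA 6 were on different slides, 3 and 5, and were scanned on different days.

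As group differences the MMP9 changes were 0.38 ± 0.35 for probe a (SE; 95% interval -0.36 to 1.13; limma adjusted p = 0.59) and 0.81 ± 0.43 for probe b (-0.09 to 1.71; adjusted p = 0.31). Without OA 1 probe a stood at 0.15 and without OA 6 at 0.15, and probe b at 0.52 and 0.51. With normexp background correction probe b passed (0.97 ± 0.21, adjusted p = 0.0015), in a fit where 47.3% of all tested probes passed and the median change of all probes was 0.33. The probes correlated at r = 0.96 over the 7 OA arrays (exact permutation p = 0.023, adjusted p = 0.035; rho = 0.64). Without the 2 arrays farthest from the median r was 0.08, so the relation rests on them. By rank it did not pass (exact permutation adjusted p = 0.21). Over the 7 sham arrays r was 0.37 (exact permutation p = 0.41, adjusted p = 0.41; rho = 0.54).

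Markers of cells known to make MMP9 were read on the same arrays. Of 12 neutrophil and mast cell markers 5 were tested (S100A8, S100A9, S100A12, LTF and KIT), and 0 passed. Their mean log2 value stood 0.35 above its sham mean on OA 1 and 0.27 on OA 6, above the highest sham array (0.24), and higher still on OA 4 (1.65) and OA 2 (1.03), where MMP9 a stood at 0.40 and 0.58. Their summed linear level, relative to the 75th percentile of each array, was 0.956 to 3.77 on sham arrays and 2.06 to 7.64 on OA arrays, with 2.93 on OA 1 and 2.69 on OA 6; the mast cell gene KIT made up 44% to 88% of that sum. The markers did not order the arrays alike. S100A12, a neutrophil calcium-binding protein, stood at 0.63, 0.73 and 2.98 relative to its sham mean on OA 1, OA 6 and OA 4, and S100A9, of the same family, at 0.89, 0.21 and 2.11. S100A8 stood at -0.77, -0.03 and 2.58 on these arrays, KIT at 0.27, 0.18 and 1.64, and LTF, lactoferrin of neutrophil granules, at 0.75, 0.26 and -1.08. OA 4 was also the array with the highest MMP1 value, and the part of these cells in the MMP9 and MMP1 values was not tested. Of 11 macrophage and monocyte markers 5 were tested and 0 passed. Their summed level was 15.1 to 74.0 in sham, 36.8 on OA 1 and 44.0 on OA 6, and CD163 made up 32.3% to 72.2% of it. Their mean log2 value stood 0.12 above its sham mean on OA 1 and 0.21 on OA 6, below the highest sham array (0.83). Relative to the sham means, LYZ stood at 0.34 on OA 1 and 2.07 on OA 6. CD163 stood at -0.51 and 0.09, AIF1 at 0.79 and -0.57, C1QA at 0.09 and -0.38, and CD14 at -0.14 on both. LYZ lay above every sham array on OA 6, and also on OA 2, OA 4 and OA 5 (1.53, 2.84 and 2.22). Of 7 osteoclast markers 6 were tested, MMP9 itself among them. The mean log2 value of the other 5 stood 0.83 above its sham mean on OA 1, 0.67 on OA 2 and 0.31 on OA 6, above the highest sham array (0.18). Their summed level was 156 to 218 in sham and 195 to 353 in OA, with 353 on OA 1 and 257 on OA 6; ITGB3, an integrin subunit of osteoclasts, made up 72.9% to 91.9% of it. On OA 1 and OA 6, relative to the sham means, ITGB3 stood at 1.06 and 0.59, ACP5, the tartrate-resistant phosphatase, at 1.46 and 0.30, and DCSTAMP, a cell fusion protein, at 1.26 and 0.43. CALCR, the calcitonin receptor, stood at 0.41 and 0.38, and CTSK, the collagen-cutting cathepsin K, at -0.06 and -0.15. The part of osteoclasts and macrophages in the MMP9 values was not tested.

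**Figure D2:**
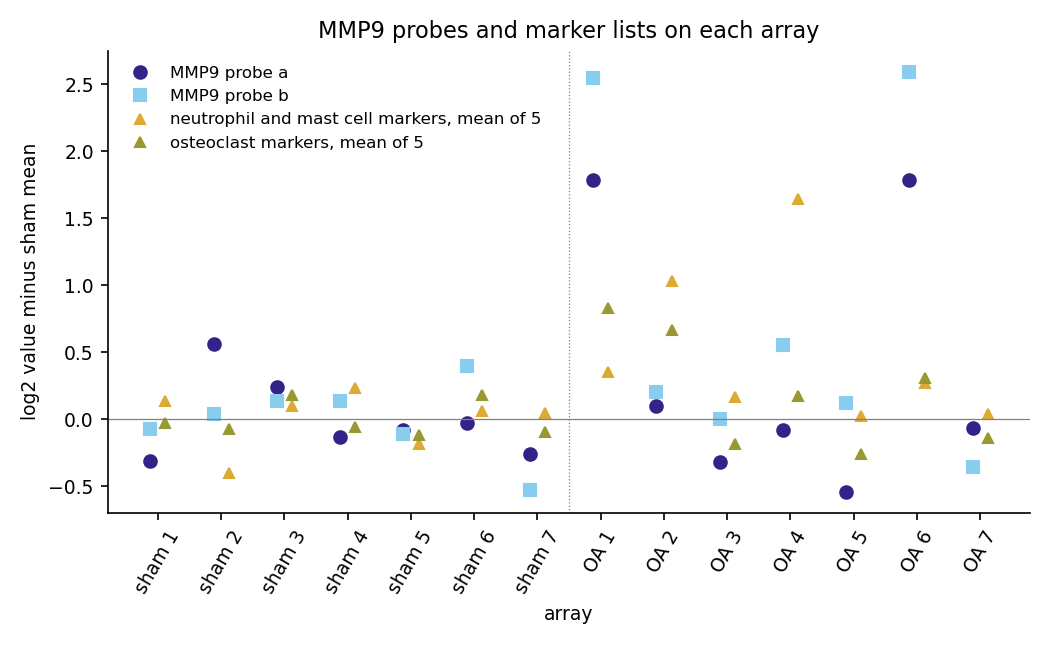
For each array (horizontal axis) the plot gives the log2 value minus the sham mean for MMP9 probes a and b, and the mean of the same quantity over 5 neutrophil and mast cell markers and 5 osteoclast markers (vertical axis). OA 1 and OA 6 stand at 1.79 on probe a and at 2.55 and 2.59 on probe b; the neutrophil and mast cell markers are highest on OA 4 (1.65) and OA 2 (1.03).

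MMP14, the membrane-bound activator of MMP2 (NM_214239), ran from 3.89 (sham 1) through 4.08 to 5.11 (sham 3) in sham and from 3.53 (OA 7) through 4.72 to 5.69 (OA 2) in OA. Of the OA arrays 5 lay above the sham mean and 2 above the highest sham array, and OA 7 lay below the lowest. The change was 0.36 ± 0.30 (SE; 95% interval -0.26 to 0.99; limma adjusted p = 0.53). The OA arrays divided by slide: OA 1 and the 4 arrays of slide 4, which were the dim ones, stood at 4.72 to 5.69, and the 2 of slide 5 at 3.53 and 4.22. Without slides 3 and 4 the change was -0.46, and with array brightness as a covariate -0.62, neither past the threshold.

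ADAMTS1 (NM_001144843), a secreted protease that cuts aggrecan and versican, was read by a pair of probes, neither past the threshold. Its sham values on probe a ran from 0.83 (sham 4, with sham 2 at 0.83 as well) through 2.50 to 3.42 (sham 6). Its OA values ran from 2.04 (OA 1) through 3.12 to 5.34 (OA 3). OA 3 stood 8.42-fold above the sham mean, 6 of 7 OA arrays lay above that mean, and 2 lay above the highest sham array. The change was 0.95 ± 0.52 (SE), a 1.93-fold difference with a 95% interval of 0.906-fold to 4.12-fold (limma adjusted p = 0.33). The OA values divided by slide, with the 4 arrays of slide 4 at 3.12 to 5.34, the 2 of slide 5 at 2.38 and 2.76 and OA 1 at 2.04. The change was 0.31 without slides 3 and 4, 0.43 with array brightness as a covariate, 0.53 with array weights and 0.60 without OA 3, none past the threshold. Probe b stood at 0.15 ± 0.41 (95% interval -0.71 to 1.01; adjusted p = 0.88), from -1.83 through -0.95 to -0.01 in sham and from -2.0 through -0.97 to 0.55 in OA. OA 3 and OA 5 were the highest of the 14 arrays on both probes. The probes correlated at r = 0.83 in OA (n = 7, exact permutation p = 0.0095, adjusted p = 0.019; rho = 0.82) and r = 0.51 in sham (n = 7, exact permutation p = 0.23, adjusted p = 0.28; rho = 0.54). Without the 2 farthest arrays r was 0.81 and 0.85. By rank neither group passed (exact permutation adjusted p = 0.10 in OA and 0.24 in sham).

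TIMP1 (NM_213857), a secreted inhibitor of most MMPs, was read by 3 probes, each with a negative change that did not pass. Probe a ran from 4.0 (sham 4) through 4.71 to 5.18 (sham 2) in sham and from 4.07 (OA 7) through 4.68 to 4.93 (OA 1) in OA. Its change was -0.13 ± 0.21 (SE; 95% interval -0.58 to 0.33; limma adjusted p = 0.78), the narrowest interval among the 13 probes. Probe b ran from -0.70 (sham 4) through 0.42 to 1.29 (sham 2) in sham and from -1.16 (OA 3) through -0.18 to 0.81 (OA 4) in OA. Its change was -0.61 ± 0.31 (95% interval -1.27 to 0.06; adjusted p = 0.30), 0.656 of the sham level, with 6 of 7 OA arrays below the sham mean. Probe c followed probe b, from -0.81 through 0.35 to 1.19 in sham and from -1.32 through -0.29 to 0.77 in OA, with a change of -0.58 ± 0.31 (adjusted p = 0.33).

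Probes b and c gave nearly one and the same order of animals, with r = 1.00 in sham and 0.99 in OA (n = 7 each, exact permutation p = 0.00020 and 0.00040, adjusted p = 0.00060 and 0.0024; rho = 1.00 and 0.96). They are therefore close to 1 measurement. Probe a followed probe b in sham (n = 7, r = 0.88, exact permutation p = 0.015, adjusted p = 0.023; rho = 0.75) and not in OA (n = 7, r = 0.14, exact permutation p = 0.76, adjusted p = 0.81; rho = 0.11). Without the 2 farthest arrays r was 0.57 in sham and 0.13 in OA. By rank neither group passed (exact permutation adjusted p = 0.099 in sham and 0.84 in OA). OA 3 shows the disagreement, at the group's median on probe a and lowest of all 14 arrays on probes b and c. Whether the relation of probes a and b differed between the groups was not tested, and slides held too few arrays for a correlation within a slide here or for any other pair.

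**Figure D3:**
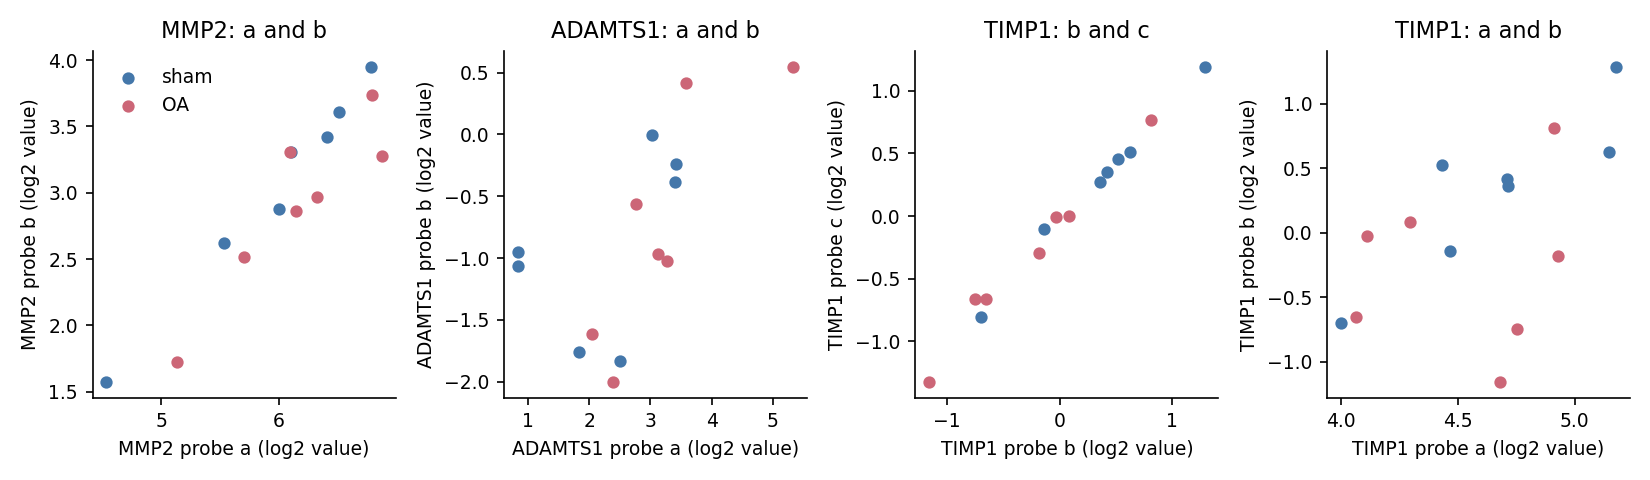
Log2 values of paired probes of one gene (one probe on each axis), 1 point per array, with 7 sham arrays in blue and 7 OA arrays in red. MMP2 a and b and TIMP1 b and c lie near a line in both groups, whereas TIMP1 a and b do so in sham (r = 0.88) and not in OA (r = 0.14).

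TIMP2 (NM_001145985), the inhibitor that also takes part in MMP2 activation, ran from 1.32 (sham 4) through 2.10 to 3.62 (sham 2) in sham and from 1.13 (OA 3) through 1.74 to 2.24 (OA 1) in OA. Sham 2 stood 1.45 above the sham mean and above every other array. The change was -0.42 ± 0.29 (SE; 95% interval -1.04 to 0.19; limma adjusted p = 0.45), and without sham 2 it was -0.18. OA values lay within the sham range except that of OA 3.

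**Figure D4:**
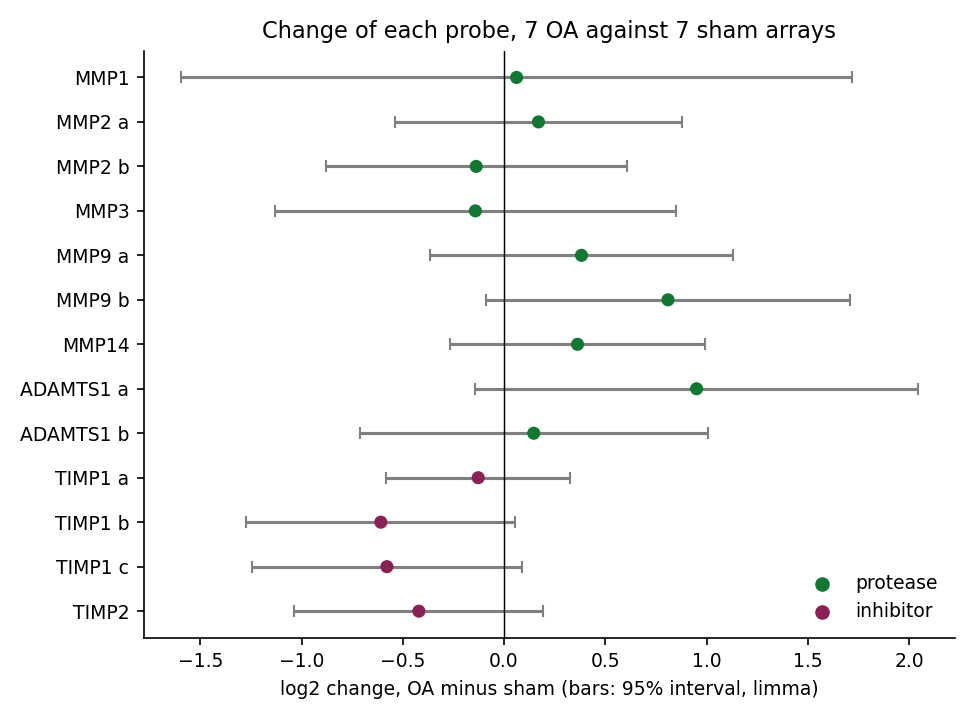
Log2 change, OA minus sham, of each of the 13 probes (points; proteases green, inhibitors purple) with its 95% interval from limma (bars), over 7 arrays per group. Every interval includes 0; the points run from -0.61 for TIMP1 b to 0.95 for ADAMTS1 a.

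The protease to inhibitor balance of an array was taken as the mean value of the 6 protease genes minus the mean value of TIMP1 and TIMP2, each gene by its brightest probe. Scaling between arrays cancels in it, its zero has no meaning of its own, and it carries no p because the genes were chosen. The sham arrays averaged -0.58 ± 0.73 and the OA arrays -0.01 ± 0.36 (SD, n = 7 each), a difference of 0.57 or 1.49-fold. Sham arrays stood at -0.63, -2.16, -0.39, 0.04, -0.10, -0.47 and -0.36 for sham 1 to sham 7. OA arrays stood at -0.43, -0.10, 0.49, -0.07, 0.42, 0.06 and -0.42 for OA 1 to OA 7. All 7 OA arrays lay above the sham mean and 3 above the highest sham array, but the groups overlapped and sham 2 lay far below every other array.

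Sham 2 set much of that difference. Without it the sham balance was -0.32 ± 0.25 (SD, n = 6), the difference 0.31 or 1.24-fold, and 5 of 7 OA arrays lay above the sham mean. Sham 2 had the lowest protease mean of the sham arrays (2.24) and the highest inhibitor mean of all 14 (4.40). Sham 2 had the lowest summed level of the 14 arrays for 5 of 11 marker lists: endothelial (8.23, against 16.8 to 39.2 on the other sham arrays), macrophage and monocyte (15.1), neutrophil and mast cell (0.956), synovial lining (40.9) and adipocyte (4.98). Its 4 meniscus and cartilage markers summed to 646, against 299 to 518 on the other sham arrays and 373 to 778 on OA arrays. DCN made up 38.0% to 83.0% of that sum. By mean log2 value these markers stood 0.84 above the sham mean on sham 2 and were lowest of the 14 arrays on OA 7 (-1.42). There ACAN, SOX9 and HAPLN1 were each the lowest of all, while DCN stood at 0.33. OA 7 also had the lowest protease mean (2.35) and inhibitor mean (2.77) of the OA arrays. The part of tissue composition in the values of sham 2 and OA 7 was not tested. The protease mean was 2.84 ± 0.36 in sham and 3.13 ± 0.37 in OA, and the inhibitor mean 3.42 ± 0.54 and 3.14 ± 0.28 (SD, n = 7 each). Of the 12 pairs of 1 protease with 1 inhibitor, 11 had a higher difference in OA, from -0.01 for MMP3 with TIMP1 to 1.37 for ADAMTS1 with TIMP2. These pairs reuse the gene changes of the balance and include sham 2, so they add no separate support. Without sham 2 the changes were -0.27 for MMP1, -0.07 for MMP2 a, 0.03 for MMP3 and 0.48 for MMP9 a. They were 0.31 for MMP14, 0.71 for ADAMTS1 a, -0.04 for TIMP1 a and -0.18 for TIMP2.

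**Figure D5:**
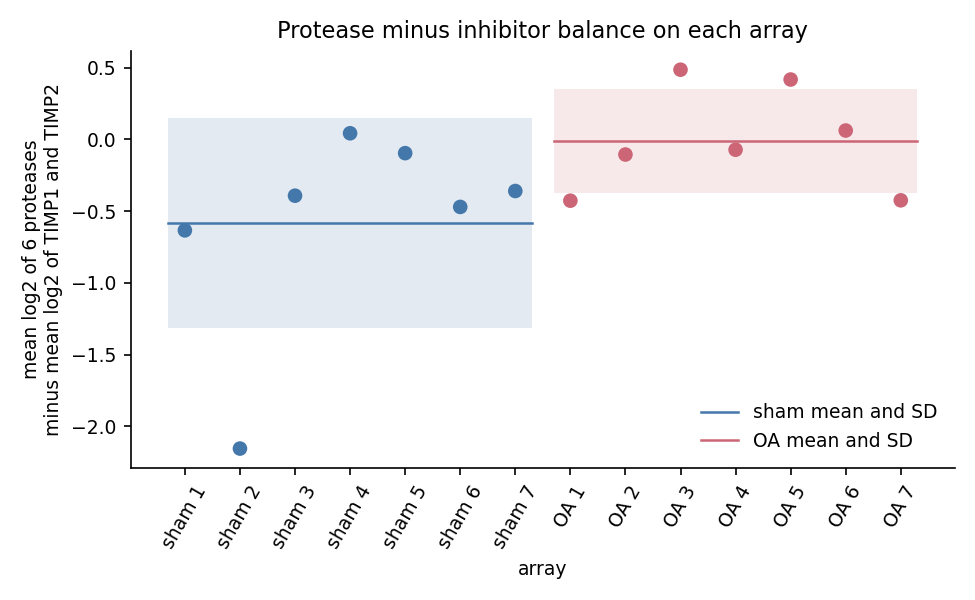
Mean log2 value of 6 proteases minus that of TIMP1 and TIMP2 (vertical axis) on each array (horizontal axis), with the group mean (line) and SD (band) over 7 sham and 7 OA arrays. OA arrays lie from -0.43 to 0.49, and sham 2, at -2.16, lies below all others.

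The 8 genes did not rise and fall as a block across animals. Of 28 pairs of genes, 14 correlated positively in sham and 13 in OA, and 0 passed in either group after adjustment (exact permutation over 7 arrays; 3 pairs in sham and 1 in OA at an unadjusted p under 0.05). In sham these were MMP2 with ADAMTS1 (r = 0.79), MMP9 with TIMP2 (r = 0.85) and TIMP1 with TIMP2 (r = 0.81), each with adjusted p = 0.24 by exact permutation. In OA the pair was MMP9 with TIMP2 (r = 0.78, exact permutation adjusted p = 0.79). Without the 2 arrays farthest from the MMP9 median, the pair of MMP9 and TIMP2 stood at r = -0.01 in sham and -0.15 in OA.

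For each gene the 2 named genes with the most similar values were found by Pearson r over the 14 arrays with each group's mean taken out, among 2256 genes, as a description. Among those of MMP1 was SELP, the adhesion receptor P-selectin (r = 0.75). MMP2 lay nearest to NPC2 (0.87), a lysosomal cholesterol carrier, and LGALS1 (0.85), galectin 1. MMP3 lay nearest to MYOZ3 (0.85) and PIWIL2 (0.84), and MMP9 to ZPBP (0.93) and HAMP (0.92), the iron hormone hepcidin. MMP14 lay nearest to SLC52A2 (0.91), a riboflavin transporter, and the chemokine receptor CCR10 (0.84). Unlike MMP14, both passed as higher in OA, at 1.18 and 1.12 (limma adjusted p = 0.032 and 0.022). ADAMTS1 lay nearest to TOB1 (0.86) and NR4A3 (0.84), an immediate-early nuclear receptor. TIMP1 lay nearest to MIF (0.95), a cytokine, and DNAJC3 (0.89), and TIMP2 to SLC6A8 (0.95), the creatine transporter, and CCND3 (0.94), cyclin D3. Without the 2 arrays farthest from the median, r ranged from 0.65 for MMP2 with NPC2 to 0.97 for TIMP2 with SLC6A8. Taking out group means leaves differences between slides of a group in the values, and their part in these r was not tested.

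Other genes of the pathway were counted from 5 lists. Of 39 other matrix proteases 5 were tested and 0 passed, with a median change of -0.17: ADAM17, the sheddase that releases TNF, stood at -0.62 ± 0.20 (SE; limma adjusted p = 0.10, its other 2 probes at -0.22 and -0.69), MMP12, macrophage elastase, at -0.51 ± 0.38 and DPP4 at -0.17 ± 0.40. Of 15 other inhibitors and clearance receptors 4 were tested and 0 passed, with a median of 0.01. CST3, the cathepsin inhibitor cystatin C, stood at -0.30 ± 0.18, and SERPINA1, the elastase inhibitor, at -0.81 ± 0.86. Of 25 activators and cofactors of the precursors 10 were tested and 0 passed, with a median of 0.11. PLAU, urokinase, stood at 0.72 ± 0.36 (adjusted p = 0.28) and its other probe at -0.01, CTSK at -0.31 ± 0.20 and KLK4 at 0.25 ± 0.17.

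Of 35 transcriptional and cytokine inducers of these enzymes 20 were tested, with a median of 0.11; 1 was higher in OA and 0 lower, a share near the 3.74% called among all tested probes. That gene was LIF, leukemia inhibitory factor, an interleukin-6 type cytokine, at 0.68 ± 0.14 (SE; limma adjusted p = 0.014). STAT3, the transcription factor that carries the signal of such cytokines, stood at 0.84 ± 0.24 on its brightest probe (adjusted p = 0.064) and at -0.20, 0.35 and -0.61 on the others, and RELA, a subunit of nuclear factor kappa B, at -0.79 ± 0.24 (adjusted p = 0.080). Of 35 matrix substrates 8 were tested and 0 passed, with a median of 0.14. COL5A1, which encodes a type V collagen chain, stood at 0.68 ± 0.24 (limma adjusted p = 0.12) and its other probes at -0.66 and -0.50. COL10A1 stood at 0.28 ± 0.20. SPARC stood at 0.25 ± 0.25 on its brightest probe and at 0.38, -0.18, -0.16, -0.15, -0.18 and -0.10 on the others. The list members not tested here, among them the collagenases MMP8 and MMP13 and the aggrecanases ADAMTS4 and ADAMTS5, were not analysed here.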

How the data were processed

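Per the file headers, the deposited intensity values are background-subtracted spot signals from Agilent Feature Extraction 11.0.1.1, without scaling across arrays. The authors' deposited table of log2 values, with a column median of 6.00 on each array, followed the scanner signal with a Spearman rho of 0.994 to 1.00 across 43603 probes and was used as an alternative; the sources used here do not say how it was made.

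Values were computed from the processed signal as described above. Of 43603 distinct non-control probes, the 38818 well above background on at least 7 of 14 arrays were tested by limma's lmFit and eBayes (version 3.58.1, under R 4.3.3), two-sided; p-values were adjusted over all of them by Benjamini-Hochberg, at a threshold of 0.05. Spots marked as outliers (82 in all) were left out. The fit was tested on simulated data. Normexp (offset 50) was run on the median signal in place of the planned mean signal. Names came from matching RefSeq accessions to the Sscrofa11.1 gene table, and 5461 of 5779 probes with an accession matched; coordinates are left out, as the sources used here name no build for the array. The rule for named genes was every probe of the listed genes, the 3 smallest p in each pathway list and the 2 most similar genes of each gene; not every gene so chosen is reported here, and further markers were named after their values were seen. Members and lists were chosen with earlier results of these data known. Arrays were treated as 1 animal each, since the series describes 14 pigs; the number of arrays limits the precision. Alternatives were quantile, median and normexp processing, other filters, the authors' table, variance models, the replicate block, slide, scan day and brightness terms, arrays left out, and, for the balance, other choices of probes and genes.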

Additional observations from a re-analysis of the deposited data

Results flagged for a closer look

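One value stood far from the rest of its group, among 28 sets of 7 arrays that were examined for this (13 probes and the balance, in each group); chance flags about 1 in 20 such sets. The protease to inhibitor balance of sham 2 was -2.16, with the next lowest sham array at -0.63, so that this gap took up 0.692 of the range of the sham group. Its part in the difference between the groups is given above, with the balance without it.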

How the results depend on the processing

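In 28 of 29 alternatives 0 of the 13 probes passed the threshold; with normexp background correction 1 did (MMP9 b). The 2 MMP9 probes, ADAMTS1 a, the 3 TIMP1 probes and TIMP2 kept their sign in all 29 alternatives, but their size moved: MMP9 a from 0.15 to 0.86, MMP9 b from 0.51 to 1.12, ADAMTS1 a from 0.31 to 1.15, TIMP1 a from -0.79 to -0.04, TIMP1 b from -1.04 to -0.45, TIMP1 c from -0.98 to -0.41 and TIMP2 from -0.63 to -0.18. The other 6 probes changed sign at least once, 26 times in all, and none of them passed in any alternative. Some alternatives could not move a log2 change of these probes: the other filters, marked spots kept, trended and robust variance, and the replicate block. Median scaling shifted every probe by the same small amount. A sign kept under these adds no support. With array brightness as a covariate, MMP1 stood at -0.71, MMP2 a at -0.11, MMP3 at 0.16, MMP14 at -0.62 and ADAMTS1 b at -0.34. Without slides 3 and 4 the OA group was OA 6 and OA 7 alone. MMP1 then stood at -0.17, MMP2 a at -0.34, MMP14 at -0.46 and ADAMTS1 b at -0.39. The group differences in raw 75th percentile and in probes above background then shrank to -90.6 and -2.95 percentage points (exact permutation p = 0.33 and 0.14). With array weights MMP2 a stood at -0.23 and MMP3 at 0.17, and with the slide as a random block MMP1 stood at -0.058. With 1 array left out MMP1 ran from -0.42 to 0.46, MMP2 a from -0.072 to 0.34, MMP2 b from -0.38 to 0.061, MMP3 from -0.42 to 0.17 and ADAMTS1 b from -0.069 to 0.36. The cause of these changes was not tested. The balance difference was positive in all 31 alternatives, from 0.31 without sham 2 to 0.72 with TIMP2 as the only inhibitor. Median scaling, the other filters and keeping marked spots could not change it, so they add no support. Quantile normalization and the authors' table gave nearly the same value, 0.59. No slide or brightness term was fitted to the balance. With the replicate block 0 of the 13 probes passed (smallest limma adjusted p = 0.28) and 283 of all tested probes did; same-numbered arrays deviated together with correlations from -0.19 to 0.27 and none matched its own number best, so the numbers were not taken as pairs.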
